A study of Saccharomyces cerevisiae with 22 samples.

Results

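The genes described here are 8 markers used to select and construct laboratory strains of budding yeast: URA3, HIS3, LEU2, LYS2, MET17, TRP1, CAN1 and ADE2. They were chosen by gene symbol, each symbol was carried by 1 probe, and the 8 probes were taken from 6388 gene probes on the array, of which 5326 had a gene name. The arrays compared Saccharomyces cerevisiae strains with an alanine substitution in histone H3 (gene HHT2) or histone H4 (gene HHF2) with a common wild-type reference RNA. The 11 strains were the H3 mutants hht2-pm-Q5A, hht2-pm-R40A, hht2-pm-G44A, hht2-pm-R53A, hht2-pm-N108A and hht2-pm-L109A, the H4 mutants hhf2-pm-K44A, hhf2-pm-V81A and hhf2-pm-Y98A, and 1 control for each histone, hht2-wt and hhf2-wt. Each strain was grown as 2 cultures, a and b, in synthetic complete medium with glucose to mid-log phase, and each culture was hybridised on its own array. That gave 22 arrays. The sample titles also carry a number that the labels do not explain. It is 1 for hht2-wt, hhf2-wt, hhf2-pm-Y98A, hht2-pm-L109A and hht2-pm-R53A, and 2 for the other strains. For a mutant with the number 2, what goes with this number cannot be told apart from the substitution. The labels put the strain in Cy3 for culture a and in Cy5 for culture b, and all strains as well as the reference are labelled with the background BY4742. No label lists the alleles of the marker genes, so what each strain carries at these loci was not stated in the sources used here.

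Auxotrophic markers encode enzymes of biosynthetic pathways, and a strain that lacks one needs the product of that pathway in its medium. URA3 (orotidine-phosphate decarboxylase) acts in uracil synthesis, HIS3 (imidazoleglycerol-phosphate dehydratase) in histidine synthesis, LEU2 (isopropylmalate dehydrogenase) in leucine synthesis and LYS2 (aminoadipate reductase) in lysine synthesis. MET17 (also named MET15) makes homocysteine from sulphide, TRP1 acts in tryptophan synthesis, and ADE2 in the purine pathway, where its loss gives red colonies. CAN1 is the arginine permease through which the toxic analogue canavanine enters the cell, so its loss gives canavanine resistance. BY4742 is a MATalpha strain that is known to carry mutations in HIS3, LEU2, LYS2 and URA3 and to have intact MET17, TRP1, CAN1 and ADE2. In strains made for automated crosses, CAN1 is often replaced by HIS3 placed behind a promoter that is active in one mating type, and URA3 is a common tag for an altered locus.

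The labelled background was checked first. Of the genes expressed in MATalpha cells, MF(ALPHA)1, MF(ALPHA)2, STE3 and SAG1 had a negative log2 ratio of strain over reference on all 22 arrays, from -6.08 to -2.29. The 6 a-specific genes MFA1, MFA2, STE2, STE6, BAR1 and AGA2 were higher in the strain in 129 of 132 values. In the labelled dye order the reference thus had the mating-type pattern of BY4742, and the strains other than hhf2-pm-Y98A had the opposite one. In hhf2-pm-Y98A the genes of MATalpha cells were low too, but the a-specific genes were near the reference. They were above it in 9 of 12 values there, with array medians of 0.07 and 0.21. Low genes of MATalpha cells together with high a-specific genes go against the BY4742 label of the strains other than hhf2-pm-Y98A. In hhf2-pm-Y98A neither group was high, so these genes do not settle its label. The series text gives the dyes of the first hybridisation in the opposite order to the labels. Under that order all 22 ratios of every gene would change sign, strain and reference would trade their values, and the comparisons between strains would change sign too. The reference is 1 RNA pool common to all arrays. HIS3 signals ran from 82.2 to 1769 in the labelled strain channel and from 255 to 642 in the labelled reference channel. In hhf2-pm-Y98A they were 82.2 and 83.6 in the strain channel and 503 and 256 in the reference channel. The channel labelled as strain was thus the one in which HIS3 was low in that strain. Every direction below rests on the labelled order.

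The markers differed in which channel was bright, by raw spot signal in scanner units. URA3 was bright in the strain and dim in the reference, MET17, TRP1 and CAN1 were dim in the strain and bright in the reference, and ADE2 was bright in both. LEU2 and LYS2 were dim in both, and HIS3 was above the reference in most strains. Local background around these spots had medians of 48.5 to 52.8 over the 22 arrays. A spot counted as above background when it exceeded its local background by 2.6 background SDs, and every marker but LEU2 did so on all 22 arrays in both channels. Median signals over all gene probes ran from 297 to 803 in the strain channel and from 285 to 703 in the reference channel.

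**Figure D1:**
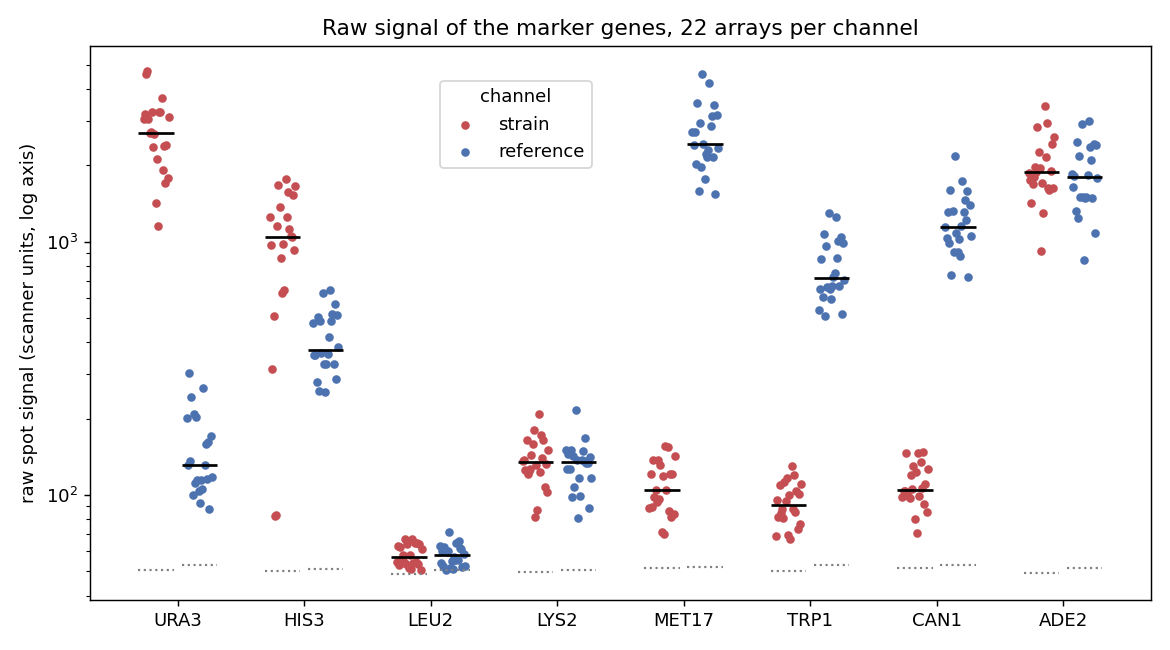
Raw spot signal (scanner units, log axis) of each marker on 22 arrays, with strain points in red and reference points in blue, horizontal bars at the median and dotted lines at the median local background. The URA3 strain median of 2693 stands above its reference median of 131, whereas the MET17 strain median of 104 stands below its reference median of 2426.

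URA3 had strain signals of 1151 at the lowest, 2693 at the median and 4716 at the highest, against 88.1, 131 and 304 in the reference. The ranges did not overlap. After background correction and normalisation within each array the log2 ratio was 4.04 ± 0.23 (SD over 22 arrays), and it was above 0 on all 22 arrays, with a range from 3.66 to 4.56. By its mean ratio URA3 ranked 3rd highest of 6388 probes. A ratio above 0 on all 22 arrays was found for 11.4% of probes, and a mean beyond 2 in either direction for 0.407%. The reference is 1 RNA pool and not a group of samples, so these ratios are descriptions and were not tested. URA3 ratios averaged 4.17 with the strain in Cy5 and 3.91 with the strain in Cy3. Reference signals of genes bright in the strain may not be those of the pool alone. MFA2, for example, read 75.2 and 68.6 in the reference on the hhf2-pm-Y98A arrays, where its strain signals were 74.3 and 100. On the hhf2-wt arrays it read 330 and 147, where its strain signals were 5078 and 5641. Whether strain signal entered the reference channel was not tested.

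MET17 had strain signals of 70.4, 104 and 156 (lowest, median and highest), against 1544, 2426 and 4595 in the reference. Its log2 ratio was -4.66 ± 0.22 (SD, 22 arrays), the 3rd lowest of all probes. CAN1 had strain signals of 70.7, 105 and 147 against 726, 1147 and 2170 in the reference, and a log2 ratio of -3.55 ± 0.21 (SD, 22 arrays), the 5th lowest. TRP1 had strain signals of 67.2, 91.4 and 130 against 508, 718 and 1300 in the reference, and a log2 ratio of -3.17 ± 0.19 (SD, 22 arrays), the 6th lowest. For each of these genes the strain and reference ranges did not overlap and the ratio was below 0 on all 22 arrays, as it was for 9.36% of probes. Dim spots next to an offset pull ratios towards 0. With no offset, an alternative chosen after seeing the data, the mean ratios were 4.65 for URA3, -5.60 for MET17, -4.44 for CAN1 and -4.26 for TRP1, so the fold behind each depends on the background step.

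LEU2 signals ran from 50.5 to 67.0 in the strain and from 50.6 to 71.5 in the reference, which overlap almost fully. The probe was above background on 11 arrays in the strain channel and on 8 in the reference channel, and no fold is given for it. LYS2 was also alike in both channels, with strain signals of 82.1, 134 and 209 and reference signals of 80.7, 135 and 217. Its log2 ratio of -0.11 ± 0.09 (SD, 22 arrays) was small but below 0 on all 22 arrays. ADE2 had strain signals of 918, 1881 and 3431 and reference signals of 848, 1803 and 3007. Its log2 ratio was 0.03 ± 0.12 (SD, 22 arrays), above 0 on 12 arrays and below 0 on 10.

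HIS3 was the marker whose level differed most between strains. Over all 22 arrays its strain signals were 82.2, 1047 and 1769, and its reference signals 255, 372 and 642. In the 9 strains other than hhf2-pm-V81A and hhf2-pm-Y98A, the 18 strain signals were 626 at the lowest, 1138 at the median and 1769 at the highest, and the log2 ratios ran from 0.85 to 1.57. In hhf2-pm-V81A the strain signals were 315 in culture a and 509 in culture b, with log2 ratios of 0.02 and 0.40. In hhf2-pm-Y98A they were 82.2 and 83.6, next to local backgrounds of 49.5 and 52.0, and the log2 ratios were -2.23 and -1.97. The reference signals of these 4 arrays, 357 and 278 for hhf2-pm-V81A and 503 and 256 for hhf2-pm-Y98A, lay within the range of the other arrays. Both strains lay below every array of the 9 others, and they did not overlap each other.

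**Figure D2:**
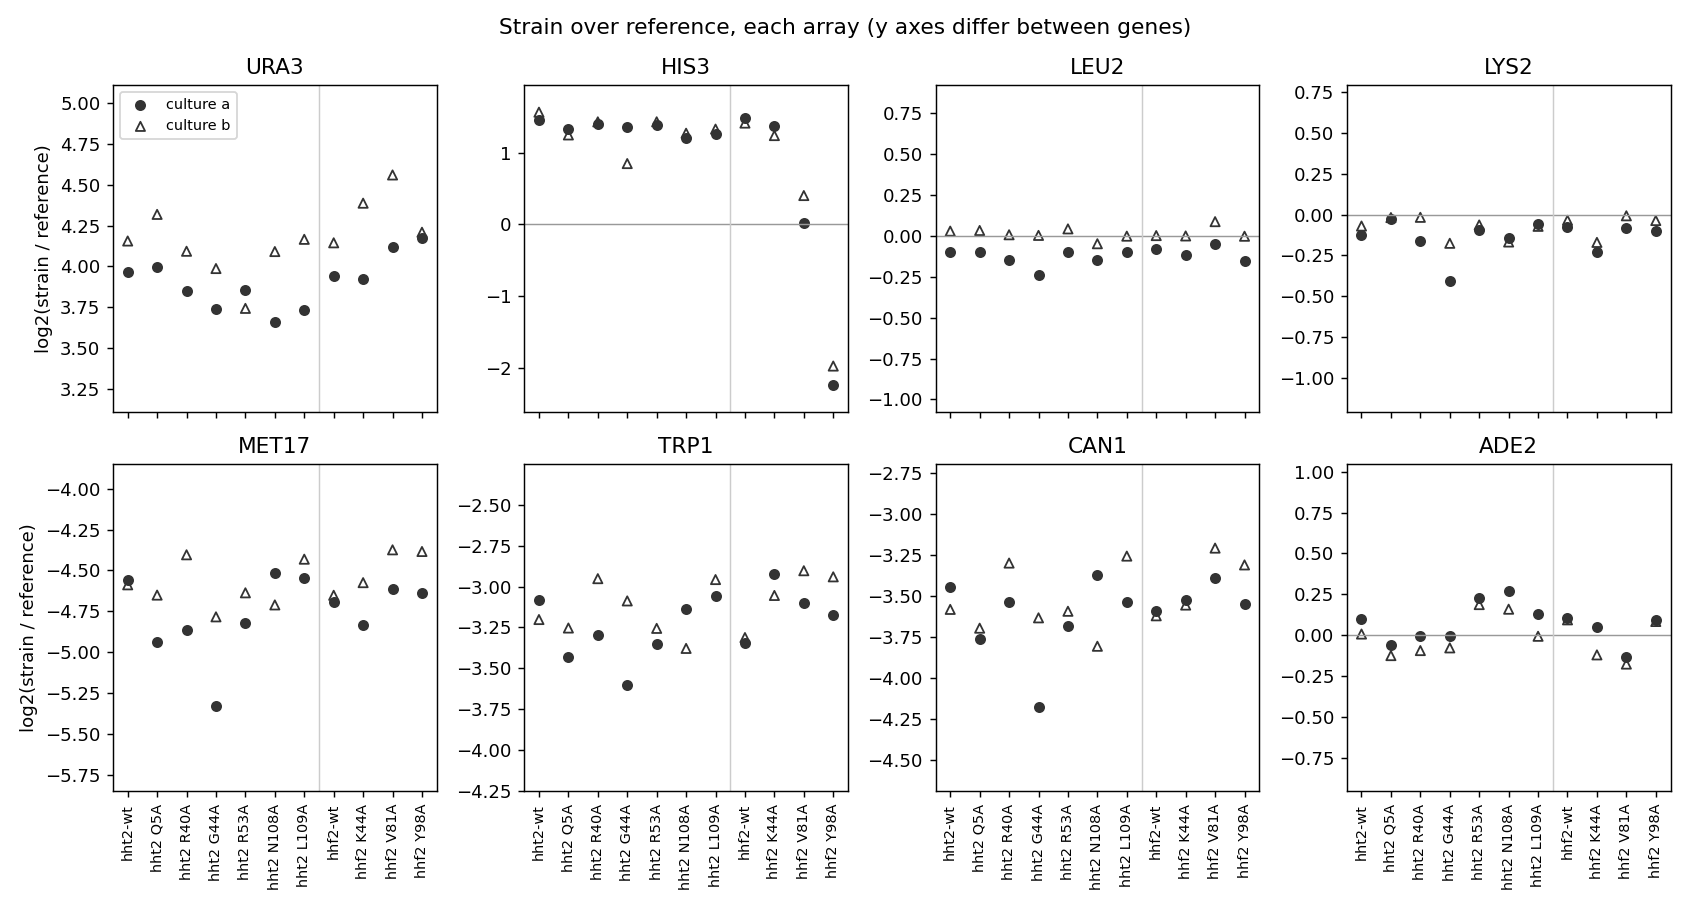
Log2 ratio of strain over reference for each marker, with 1 point per array (filled circle, culture a; open triangle, culture b) and strains along the x axis, H3 strains left of the grey line. The y axes differ between genes, and HIS3 falls from between 0.85 and 1.57 in 9 strains to 0.02 and 0.40 in hhf2-pm-V81A and to -2.23 and -1.97 in hhf2-pm-Y98A.

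The genes next to each marker at its annotated place showed whether that neighbourhood shared its ratio. The alleles of the strains were not stated, and a marker copy placed elsewhere would have other neighbours. The nearest gene with a probe on each side was taken from the RefSeq gene table, used for names, chromosomes and order only. Beside URA3 on chromosome V, GEA2 (a vesicle-traffic exchange factor) averaged a log2 ratio of 0.05 ± 0.14 and TIM9 (mitochondrial protein import) -0.14 ± 0.20 (SD, 22 arrays), against 4.04 for URA3. Beside CAN1, on the same chromosome, AVT2 averaged -0.20 ± 0.13 and NPR2 (nitrogen signalling) -0.09 ± 0.15. Beside MET17 on chromosome XII, YLR302C averaged -0.10 ± 0.06 and ACO1 (aconitase) -0.05 ± 0.27. Beside TRP1 on chromosome IV, SOK1 averaged -0.02 ± 0.14 and GAL3 (the galactose sensor) 0.12 ± 0.14. None of these 8 neighbours had a range that met the range of the marker it flanks.

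HIS3 on chromosome XV lies between MRM1 (also named PET56, a methyltransferase of mitochondrial ribosomal RNA), which shares the intergenic promoter region with it, and DED1 (a translation initiation helicase). Both neighbours had ratios below 0 on all 22 arrays, where the HIS3 ratio was above 0 on 20. The log2 ratio was -0.52 ± 0.16 for MRM1, with a range from -0.79 to -0.28, and -0.63 ± 0.16 for DED1, with a range from -0.99 to -0.33 (SD, 22 arrays). LEU2 on chromosome III had YCL021W-A at 0.93 ± 0.34 on one side, higher in the strain on all 22 arrays, and NFS1 (cysteine desulphurase) at -0.09 ± 0.14 on the other. LYS2 on chromosome II had RAD16 (nucleotide excision repair) at 0.40 ± 0.18 and TKL2 (a transketolase) at 0.68 ± 0.36, both higher on all 22 arrays. ADE2, also on chromosome XV, had RGA1 (a Cdc42 regulator) at 0.02 ± 0.10 and AFI1 at -0.13 ± 0.08.

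**Figure D3:**
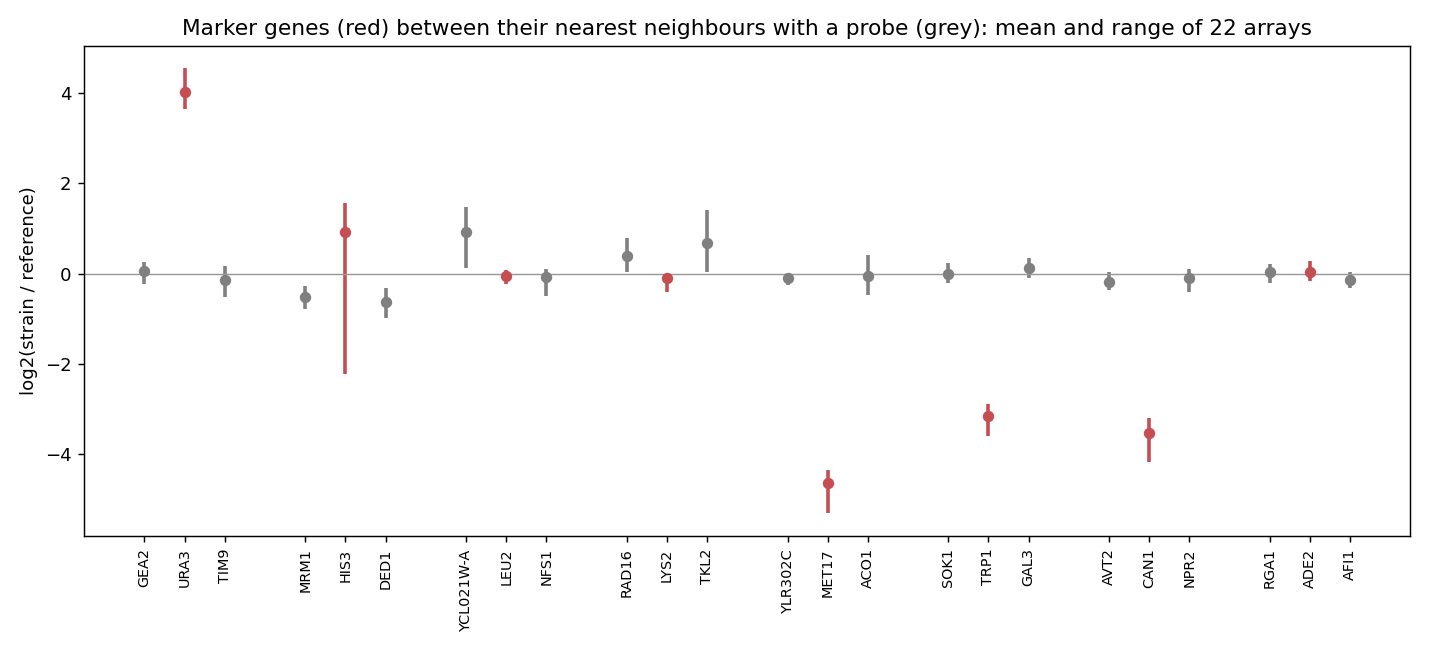
Log2 ratio of strain over reference of each marker (red) between its nearest neighbours with a probe (grey), with the point at the mean and the line from the lowest to the highest of 22 arrays. URA3 at 4.04, MET17 at -4.66, CAN1 at -3.55 and TRP1 at -3.17 stand apart from their neighbours, and MRM1 and DED1 lie below 0 on both sides of HIS3.

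Each mutant was then compared with the control strain of its own histone, to ask whether the substitution changed the markers beyond what mutants and controls share. The comparison used limma across all 6388 probes with Benjamini-Hochberg adjustment, and a probe was called at an adjusted p below 0.05. Of 72 tests of the markers, 8 markers in 9 mutants, 9 were called, 1 higher and 8 lower, which is 12.5% against 22.6% of all 57492 tests of the probes (11.7% higher and 10.9% lower). The median log2 change was -0.05 over the 72 tests and 0.00 over all probes. The markers were thus called no more often than the array as a whole, and HIS3 in hhf2-pm-V81A and hhf2-pm-Y98A had the largest changes among them. The 2 controls were also compared with each other: 0 of 8 markers were called by limma, 0 had an unadjusted p below 0.05, 0% of all probes were called, and the log2 differences ran from -0.04 to 0.18.

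**Figure D4:**
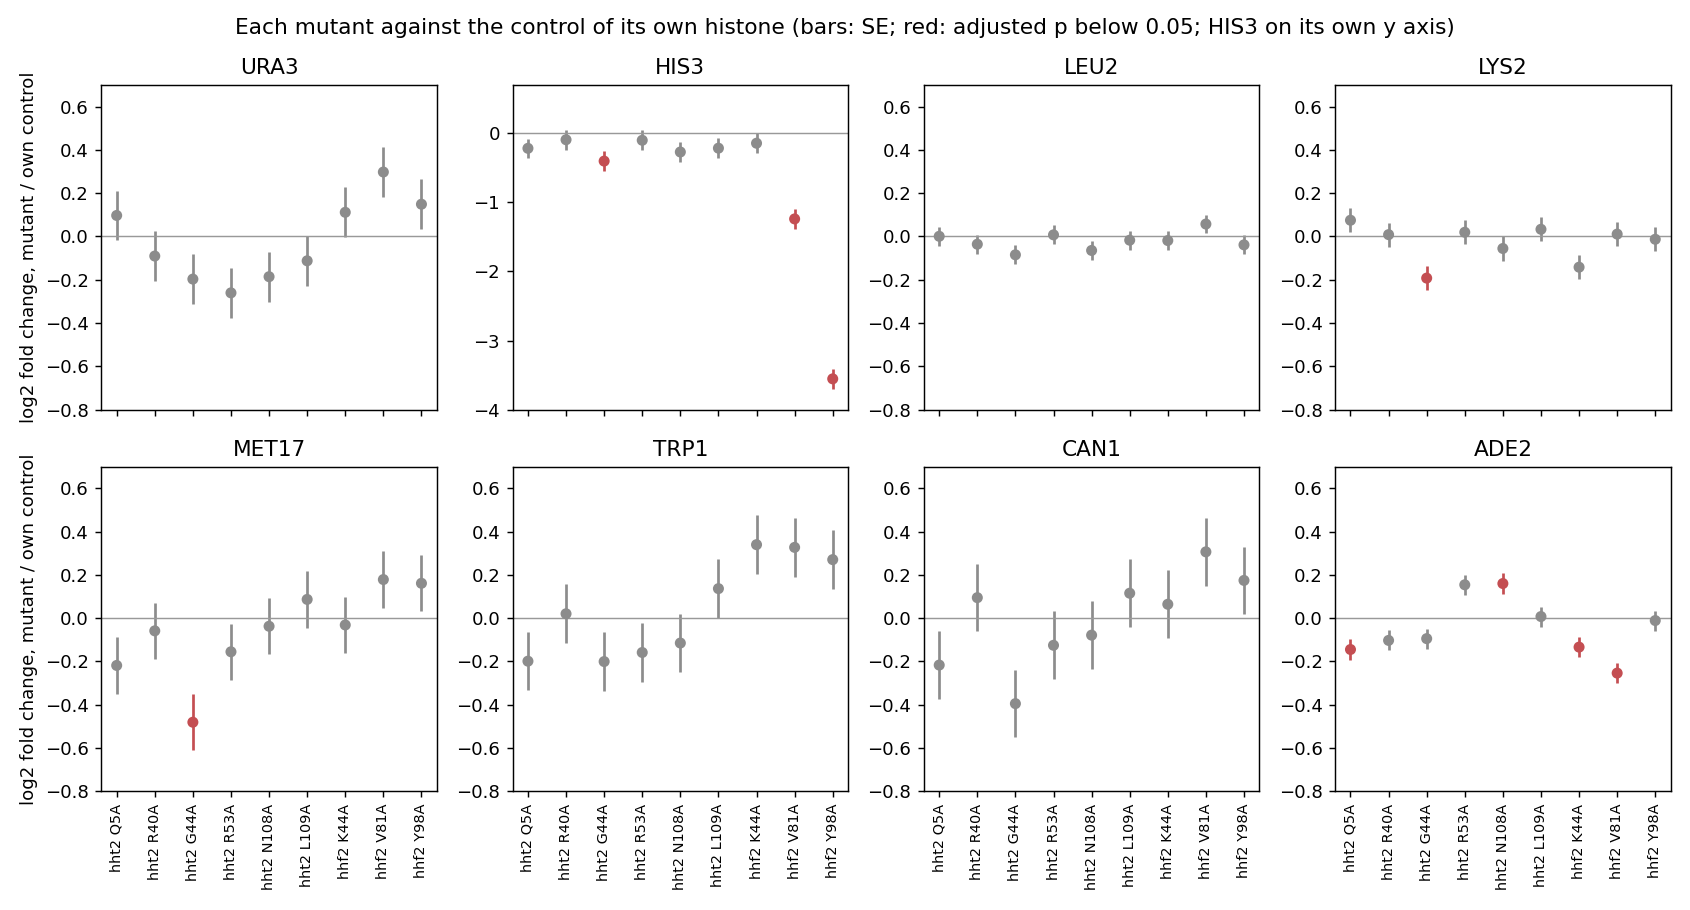
Log2 fold change of each mutant over the control of its own histone for each marker, with bars of 1 SE and red where the limma adjusted p was below 0.05. HIS3 has its own y axis, on which hhf2-pm-Y98A lies at -3.55 and hhf2-pm-V81A at -1.24, while the other panels run from -0.8 to 0.7.

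HIS3 fell in hhf2-pm-Y98A and, less far, in hhf2-pm-V81A. The hhf2-wt control had strain signals of 1157 and 1682 and log2 ratios of 1.49 and 1.41. In hhf2-pm-Y98A the log2 fold change against it was -3.55 ± 0.14 (SE, 2 arrays a strain; 95% interval -3.86 to -3.25; limma adjusted p = 4.9737e-10), which is 11.8-fold lower and the 4th largest change of all probes in that mutant. With no background offset the log2 change was -4.78, so the size of the fold depends on that step. In hhf2-pm-V81A it was -1.24 ± 0.14 (SE; 95% interval -1.54 to -0.94; limma adjusted p = 7.5571e-06), or 2.36-fold lower, the 54th largest change there. Called probes made up 30.6% of the array in hhf2-pm-Y98A and 33.9% in hhf2-pm-V81A. RNA was taken from whole cultures, so less HIS3 RNA in each cell and fewer cells with it cannot be told apart.

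The differences between the H4 mutants were tested directly. HIS3 was lower in hhf2-pm-V81A than in hhf2-pm-K44A by a log2 difference of -1.10 ± 0.14 (SE; limma adjusted p = 2.8749e-05), where 44.1% of probes were called. It was lower in hhf2-pm-Y98A than in hhf2-pm-K44A by -3.41 ± 0.14 (SE; limma adjusted p = 2.9388e-10), where 43.6% were called. It was higher in hhf2-pm-V81A than in hhf2-pm-Y98A by 2.32 ± 0.14 (SE; limma adjusted p = 1.4785e-08), where 40% were called. The hhf2-pm-K44A ratios of 1.37 and 1.24 were lower than both hhf2-wt ratios, but the difference of -0.14 ± 0.14 (SE) was not called (limma adjusted p = 0.480; 95% interval -0.45 to 0.16). In that mutant 29.5% of probes were called.

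In the order of the strain means of HIS3, hhf2-pm-Y98A at -2.10 and hhf2-pm-V81A at 0.21 came first, and hht2-pm-G44A followed at 1.11, then hht2-pm-N108A at 1.24. The 9 means from hht2-pm-G44A up to hht2-wt at 1.51 were each within 0.13 of the next, less than the largest difference of 0.51 between 2 cultures of a strain. The gaps of 2.32 above hhf2-pm-Y98A and 0.89 above hhf2-pm-V81A exceeded it. The annotated neighbours of HIS3 on chromosome XV did not fall with it, which says nothing about a HIS3 copy placed elsewhere. MRM1 differed from hhf2-wt by a log2 change of -0.11 ± 0.11 in hhf2-pm-V81A and 0.13 ± 0.11 in hhf2-pm-Y98A (SE), and DED1 by 0.03 and 0.07, with no call in either mutant.

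The strains with low HIS3 were also those in which most a-specific and haploid genes were lower than in the other strains. Over the 11 strain means, the named probe whose log2 ratio was most like that of HIS3 was BAR1 (the a-cell protease that degrades alpha-factor), with a Pearson r of 0.994, a description over means that share the reference. BAR1 log2 ratios were 3.21 and 3.42 in hhf2-wt, 3.16 and 3.22 in hhf2-pm-K44A, 1.68 and 2.14 in hhf2-pm-V81A, and -0.20 and -0.14 in hhf2-pm-Y98A. STE2 (the alpha-factor receptor) had 4.41 and 4.96 in hhf2-wt, 4.50 and 4.87 in hhf2-pm-K44A, 3.28 and 3.86 in hhf2-pm-V81A, and 0.40 and 0.52 in hhf2-pm-Y98A. Of these strains, BAR1, STE2 and HIS3 were all lowest in hhf2-pm-Y98A and next lowest in hhf2-pm-V81A. BAR1 was chosen for its likeness to HIS3, and STE2 had the next highest r (0.990), so the shared order is no independent sign.

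All 6 a-specific genes were near the reference in hhf2-pm-Y98A. Their array medians of the log2 ratio were 0.07 and 0.21 there, 2.55 and 2.89 in hhf2-pm-V81A, and 3.46 to 4.24 in the 9 other strains. The medians hide MFA2, whose ratios of 3.82 and 4.35 in hhf2-pm-V81A overlapped those of hhf2-wt, 4.21 and 4.47. The 3 genes expressed in haploid cells of both mating types, STE4 and GPA1 (subunits of the pheromone-coupled G protein) and FUS3 (its MAP kinase), had array medians of -2.56 and -2.36 in hhf2-pm-Y98A, -1.19 and -0.60 in hhf2-pm-V81A, and -0.02 to 0.47 in the others. The alpha-specific genes were low in all strains, with array medians from -4.88 to -3.78. The r with HIS3 was 0.960 to 0.994 over the 6 a-specific genes and 0.966 to 0.988 over the 3 haploid genes, and 0.101 to 0.499 over the 4 alpha-specific genes, each over 11 strain means of which hhf2-pm-V81A and hhf2-pm-Y98A stand apart. The part of the mating-type genes in the HIS3 result was not tested.

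**Figure D5:**
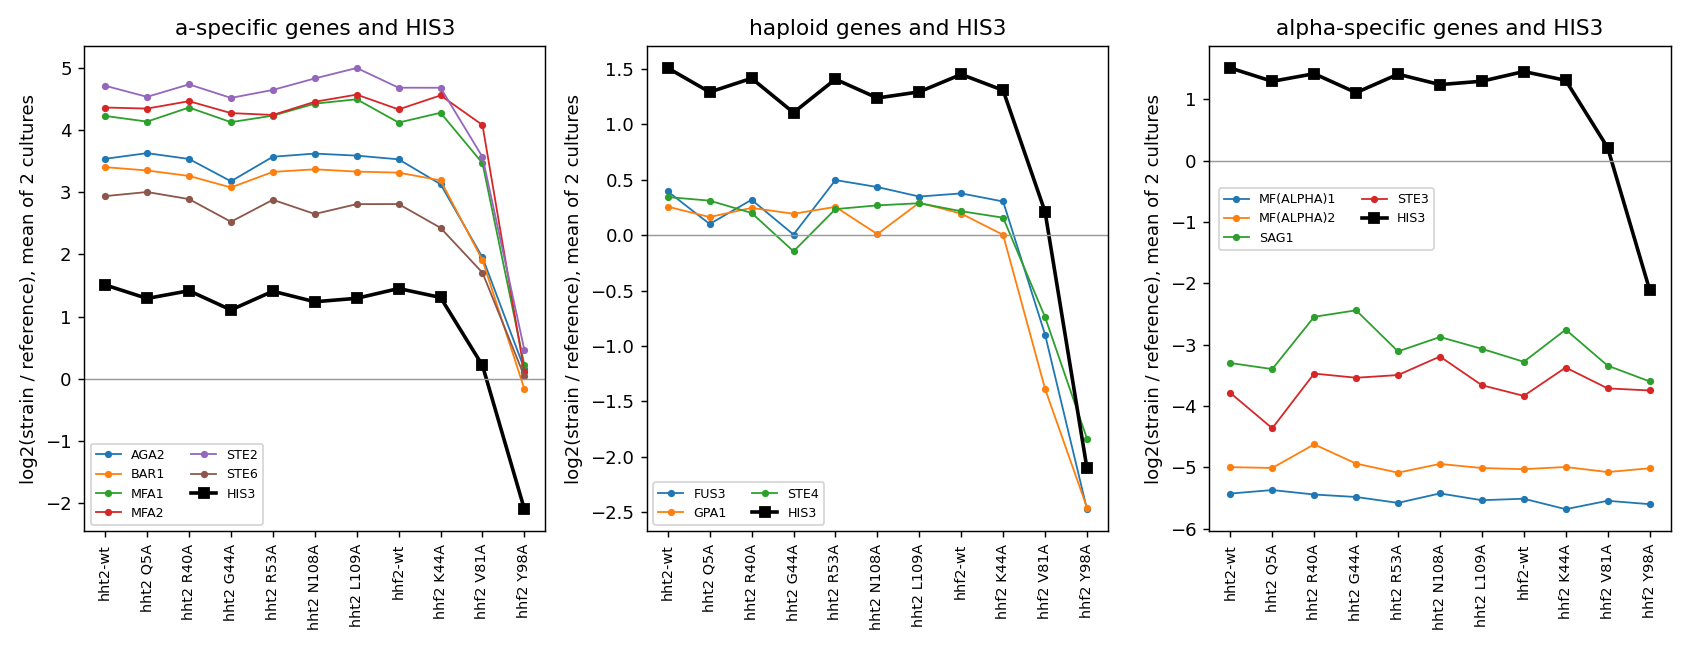
Log2 ratio of strain over reference (mean of 2 cultures) of HIS3 (black squares) with the a-specific, haploid and alpha-specific genes, by strain, on separate y axes. HIS3, the a-specific and the haploid genes are lower in hhf2-pm-V81A than in the 9 other strains and lowest in hhf2-pm-Y98A, where HIS3 lies at -2.10 and BAR1 at -0.17.

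In hht2-pm-G44A, where 46.3% of probes were called, 3 markers were called lower. The HIS3 log2 ratios were 1.36 and 0.85 against 1.45 and 1.57 in hht2-wt, a change of -0.40 ± 0.14 (SE; limma adjusted p = 0.0312). Culture b gave most of it: without hht2-pm-G44A culture b the change was -0.11 (adjusted p = 0.488), and without hht2-wt culture a or b it was -0.46 or -0.35 (adjusted p = 0.0626 or 0.156). The MET17 log2 ratios were -5.33 and -4.78 against -4.56 and -4.59, a change of -0.48 ± 0.13 (SE; limma adjusted p = 0.00761). Its strain signals were 96.3 and 131 against 84.4 and 142 in the control, and its reference signals 4595 and 2435 against 3162 and 2343. The raw signals of both channels overlapped between mutant and control. Without hht2-pm-G44A culture a the change was -0.29 (adjusted p = 0.125), and without hht2-wt culture a it was -0.36 (adjusted p = 0.0902).

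LYS2 in hht2-pm-G44A changed by -0.19 ± 0.06 (SE; limma adjusted p = 0.0118), a change of 1.14-fold. Without hht2-pm-G44A culture a it was -0.10 (adjusted p = 0.179), and without hht2-wt culture a or b the adjusted p was 0.0538 or 0.0523. CAN1 in the same mutant had log2 ratios of -4.18 and -3.63 against -3.44 and -3.58, and its change of -0.40 ± 0.16 (SE) was not called (limma adjusted p = 0.0512). In culture a of hht2-pm-G44A, MET17, TRP1, CAN1 and LYS2 each had their lowest log2 ratio of all 22 arrays. LEU2, a probe mostly not above background, also had its lowest ratio there, at -0.24. The reference signals of all these genes were their highest on that array, so the low ratios there were not particular to MET17 and LYS2.

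ADE2 was called in 4 mutants with small changes. It fell in hhf2-pm-V81A by 0.25 ± 0.05 on the log2 scale (SE; 95% interval -0.35 to -0.15; limma adjusted p = 0.000591), or 1.19-fold, with log2 ratios of -0.13 and -0.18 against 0.10 and 0.09 in hhf2-wt. It rose in hht2-pm-N108A by 0.16 ± 0.05 (SE; limma adjusted p = 0.0198), where 28.6% of probes were called, with ratios of 0.27 and 0.16 against 0.10 and 0.01 in hht2-wt. The changes in hhf2-pm-K44A, -0.13 ± 0.05 (SE; limma adjusted p = 0.0422), and in hht2-pm-Q5A, -0.15 ± 0.05 (SE; limma adjusted p = 0.0421; 18.9% of probes called), lay just inside the threshold. These last 3 calls were lost on leaving out single arrays, while the change moved little in hht2-pm-N108A and hht2-pm-Q5A. A strain left with 1 array was assumed to vary like the others. Without hht2-pm-N108A culture a the ADE2 change was 0.14 (adjusted p = 0.110), without hhf2-pm-K44A culture b it was -0.08 (adjusted p = 0.339), and without hht2-pm-Q5A culture a or b it was -0.14 or -0.15 (adjusted p = 0.185 or 0.134). Without hht2-wt culture a or b, ADE2 was also not called in hht2-pm-N108A (adjusted p = 0.0770 or 0.0884) or hht2-pm-Q5A (0.185 or 0.111), and without hhf2-wt culture a or b it was not called in hhf2-pm-K44A (0.0531 or 0.243). Leaving out either culture of hhf2-pm-V81A, hht2-pm-Q5A, hht2-pm-R53A or hht2-wt also ended the ADE2 call in hhf2-pm-K44A, with adjusted p from 0.0506 to 0.0549. Leaving out either culture of hhf2-pm-V81A, hht2-pm-L109A, hht2-pm-R40A or hht2-pm-R53A ended that in hht2-pm-Q5A, with adjusted p from 0.0503 to 0.0568.

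URA3, LEU2, TRP1 and CAN1 were called in 0 of 9 mutants each, but each gained calls under some alternatives. URA3 was called in up to 2 mutants and TRP1 in up to 3 with only the arrays compared in the fit, TRP1 in 3 also without hht2-pm-G44A culture b, and CAN1 and LEU2 in at most 1. URA3 changes ran from -0.26 in hht2-pm-R53A to 0.30 in hhf2-pm-V81A, and the latter had the lowest adjusted p (limma, 0.0583). The URA3 ratios of hhf2-pm-V81A, 4.12 and 4.56, overlapped those of hhf2-wt, 3.94 and 4.14. In hhf2-pm-V81A the probes of chromosome XIV, which carries HHT2 and HHF2, had a median log2 change of 0.72, and in hhf2-pm-K44A 0.39. The medians of chromosomes II, III, IV, V, XII and XV, which carry the markers, ran from -0.04 to 0.02 in hhf2-pm-V81A, and a part of chromosome XIV in the URA3 values was not tested. TRP1 changes ran from -0.20 to 0.34 (lowest adjusted p = 0.0737, limma, in hhf2-pm-K44A) and CAN1 changes from -0.40 to 0.31. The TRP1 and CAN1 strain spots were dim, so a change in the strain could be smaller on this scale than in RNA.

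The mutants hht2-pm-R40A (14.7% of probes called), hht2-pm-R53A (0.673%) and hht2-pm-L109A (0.0626%) had 0 of 8 markers called by limma, and 1, 2 and 0 markers had an unadjusted p below 0.05. In the order of the strain means, the markers other than HIS3 had no gap between neighbouring strains that exceeded the largest difference between 2 cultures of a strain. That difference was 0.47 for URA3, 0.54 for MET17, 0.51 for TRP1, 0.55 for CAN1, 0.23 for LYS2 and 0.17 for ADE2. It also holds the difference between the dyes, so smaller differences between strains could pass unseen by this measure. The whole spread of the 11 means was from 3.80 to 4.34 for URA3, from -5.05 to -4.49 for MET17 and from -3.34 to -2.99 for TRP1. It was from -3.91 to -3.30 for CAN1, from -0.29 to -0.02 for LYS2 and from -0.16 to 0.21 for ADE2.

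The other genes of each pathway were counted by direction in the mutants. For reading those counts, the share of all probes called higher and lower was 15.9% and 13.6% in hhf2-pm-K44A, 16.8% and 17.1% in hhf2-pm-V81A, and 13.9% and 16.7% in hhf2-pm-Y98A. It was 23.9% and 22.4% in hht2-pm-G44A, 16.6% and 12% in hht2-pm-N108A, and 7.7% and 11.2% in hht2-pm-Q5A. Of 7 other genes of histidine synthesis and uptake, 5 rose and 0 fell in hhf2-pm-V81A, with a median log2 change of 0.43 against -0.01 over all probes. HIS4 (a multifunctional enzyme of the pathway) rose by 1.44 ± 0.08 and HIS7 by 0.57 ± 0.05 (SE; limma adjusted p = 7.2985e-09 and 3.6561e-07). In hhf2-pm-Y98A 3 rose and 1 fell, with HIS4 up by 0.61 ± 0.08 and HIS6 down by a log2 change of -0.21 ± 0.06 (SE; limma adjusted p = 4.2285e-05 and 0.0211). In hht2-pm-G44A 1 rose and 5 fell, with HIS6 at -0.45 ± 0.06 and HIS2 at -0.36 ± 0.06 (SE; limma adjusted p = 6.3002e-05 and 0.000353).

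ADE2 was most like ADE17 (a bifunctional enzyme late in purine synthesis) over the 11 strain means, with a Pearson r of 0.926. ADE17 was chosen for that likeness, so its changes are no independent sign. Its log2 changes were -0.30 in hhf2-pm-K44A, -0.51 in hhf2-pm-V81A, 0.29 in hht2-pm-N108A and -0.41 in hht2-pm-Q5A. Of 16 other genes of purine synthesis and salvage with a probe, 1 rose and 4 fell in hhf2-pm-K44A, with SHM2 at -0.69 ± 0.09 and ADE13 at -0.53 ± 0.04 (SE; limma adjusted p = 4.2199e-05 and 1.2936e-06). In hhf2-pm-V81A 4 rose and 3 fell, with AAH1 (adenine deaminase) up by 0.91 ± 0.12 and ADE12 by 0.80 ± 0.07 (SE; limma adjusted p = 3.9361e-05 and 5.3916e-07). In hht2-pm-Q5A 0 rose and 3 fell, with AAH1 at -0.92 ± 0.12 (SE; limma adjusted p = 0.000157), and in hht2-pm-N108A 1 rose and 2 fell, with AAH1 at -0.34 ± 0.12 (SE; limma adjusted p = 0.0487). In hht2-pm-G44A, where ADE2 was not called, 0 rose and 7 fell.

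The sulphur and lysine lists were described in hht2-pm-G44A, where MET17 and LYS2 were called. Of 26 other genes of methionine and sulphur metabolism, 10 rose and 6 fell there, with MET2 up by 0.59 ± 0.06 and SAM1 (S-adenosylmethionine synthetase) at -0.62 ± 0.07 (SE; limma adjusted p = 3.6713e-06 and 4.8484e-06). In hht2-pm-Q5A 12 of the 26 rose and 0 fell, while MET17 itself differed by -0.22 and was not called (limma adjusted p = 0.278). Of 8 other lysine genes, 1 rose and 2 fell in hht2-pm-G44A, with LYS9 up by 0.28 ± 0.09 and LYS4 at -0.24 ± 0.05 (SE; limma adjusted p = 0.0183 and 0.00255). In hhf2-pm-V81A 7 of the 8 rose and 0 fell, with a median log2 change of 0.53, while LYS2 differed by 0.01.

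For the 4 markers never called, the pathway lists were described in the mutant with most calls. Of 14 other uracil genes, 3 rose and 3 fell in hht2-pm-G44A, with URA10 up by 0.38 ± 0.07 and FUR1 (uracil phosphoribosyltransferase) by 0.30 ± 0.07 (SE; limma adjusted p = 0.000602 and 0.00191). PPR1, the activator of several URA genes, was called in 0 of 9 mutants, with a log2 ratio over the reference of -0.03 ± 0.11 (SD, 22 arrays). The list was not level with the reference. URA1 at -2.16 ± 0.18, URA4 at -1.29 ± 0.07, FUR4 and URH1 were below 0 on all 22 arrays, as were 9.36% of probes. URA10, FCY1 and FCY2 at 0.41 ± 0.17 were above 0 on all 22 arrays, as were 11.4% of probes. Of 12 other genes of leucine and branched-chain synthesis, 8 rose and 0 fell in hhf2-pm-V81A, with LEU4 (isopropylmalate synthase) up by 1.52 ± 0.08 and ILV6 by 0.77 ± 0.12 (SE; limma adjusted p = 9.4409e-09 and 0.000197). In hht2-pm-Q5A 8 also rose and 0 fell, with BAT1 up by 0.60 ± 0.08 and ILV3 by 0.50 ± 0.11 (SE; limma adjusted p = 0.000237 and 0.00554). Of 11 other genes of aromatic and tryptophan synthesis, 7 rose and 1 fell in hhf2-pm-V81A, with ARO4 up by 1.0 ± 0.08 and ARO1 by 0.85 ± 0.07 (SE; limma adjusted p = 3.2267e-07 and 1.4284e-07). Of 9 other genes of basic amino-acid transport with a probe, 5 rose and 2 fell in hhf2-pm-V81A, with the lysine permease LYP1 up by 0.90 ± 0.06 and NPR1 by 0.89 ± 0.07 (SE; limma adjusted p = 5.9463e-08 and 1.2273e-07). All these lists had 0 calls in hht2-pm-L109A and hht2-pm-R53A, where only 0.0626% and 0.673% of all probes were called.

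The probes most like the other markers over the 11 strain means were FRE6 for URA3 (Pearson r = 0.960), OPY1 for LEU2 (0.955), GLY1 for LYS2 (0.968), CSE1 for TRP1 (0.831) and YHK8 for both MET17 (0.912) and CAN1 (0.874). These are the highest of 5326 named probes less the markers and histone genes, so high values are a result of the choice. In the authors' deposited table of fold changes, the values equal mutant minus hhf2-wt for all mutants. HIS3 stood there at a log2 fold change of -1.32 in hhf2-pm-V81A and -3.67 in hhf2-pm-Y98A. HIS3 in hht2-pm-G44A (-0.21) and ADE2 in hhf2-pm-K44A (-0.06) were called here but not there. Called there but not here were HIS3 in hht2-pm-N108A and hht2-pm-Q5A, MET17 in hhf2-pm-Y98A and hht2-pm-Q5A, and ADE2 in hht2-pm-R53A. The share of all probes called in that table was not counted, so the counts that follow have no background rate beside them. In the authors' deposited table the corrected p was below 0.05 for URA3 in 5 of 9 mutants, TRP1 in 4, CAN1 in 3 and LEU2 in 0, where the limma fit here, against the control of the same histone, called none. Its lowest values among these were 0.000793 for URA3 in hhf2-pm-V81A (log2 fold change 0.39) and 0.000983 for TRP1 in hhf2-pm-K44A (0.32) in the authors' deposited table.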

How the data were processed

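Scanner files held the spot intensity and local background intensity of both channels, deposited by the authors without background subtraction, per the file headers. Intensities were corrected with normexp (offset 50), log2 ratios normalised within arrays by global loess (span 0.3, control spots at weight 0), turned to strain over reference and averaged over the 2 spots of a probe (R 4.3.3, limma 3.58.1). One limma model held a mean for each strain and a term for the culture letter, which is also the dye, with p-values adjusted over 6388 probes. The model had 10 residual degrees of freedom, and with 2 cultures a strain the p-values measure the spread between these cultures only, which may in part be technical. The deposited value table holds log2 ratios made by the authors and was an alternative. Its columns for culture a of hhf2-wt, hht2-pm-L109A and hht2-pm-Q5A ran against the labelled scanner ratios (r -0.985 to -0.982 across probes) and were turned, and all others ran with them (r 0.935 to 0.991). The authors' deposited result table gives log2 fold changes and corrected p-values, made with limma 2.12.0 per the protocol text.

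Cultures with the same letter deviated together in 52 of 55 strain pairs (median r 0.387, lowest -0.125), and letter and dye coincide. The files give no slide or scan date. Alternatives changed the background step, the normalisation, the dye term, the arrays and spots used, the control, array weights and the filter on dim probes, or left out each array in turn. The members and lists were chosen with earlier results of these data known. Named were all 8 markers, their nearest neighbours with a probe, the probe most alike over strain means, MRM1, PPR1, and at most the 2 largest called changes of each pathway list. Mating-type genes were given as values, without a test. Array number limits precision.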

Additional observations from a re-analysis of the deposited data

How the results depend on the processing

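HIS3 in hhf2-pm-V81A and hhf2-pm-Y98A kept its direction and call under all 35 alternatives (log2 -1.44 to -1.04 and -4.78 to -3.42), and its 3 differences among the H4 mutants under all 33. ADE2 in hhf2-pm-V81A also kept its call under all 35. The count of 9 marker calls was 5 with median centring, 6 without the replicate block (the dye and culture-letter term) and 11 with normexp without an offset. Of the 9 calls themselves, 5, 6 and 7 were kept in these settings. Only 4 of the 9 were kept with only the arrays compared in the fit. Leaving out 1 array gave 3 to 14: 3 without hht2-wt culture a, 4 without hht2-wt culture b and 14 without hht2-pm-G44A culture b. The replicate block changed none of the HIS3 calls in the H4 mutants. Of 35 alternatives, ADE2 lost its call under 21 in hhf2-pm-K44A, 18 in hht2-pm-Q5A and 8 in hht2-pm-N108A, and in hht2-pm-G44A HIS3 lost it under 8, LYS2 under 7 and MET17 under 2. Strain over reference moved by more than 1 SD only with no offset, chosen after seeing the data, to log2 4.65 for URA3, -5.60 for MET17, -4.26 for TRP1 and -4.44 for CAN1. LEU2 gave -0.14 there, from spots mostly not above background, which is no measured fold. The ADE2 ratio, within its SD of 0, was -0.01 with median centring, and no called value changed sign. URA3 had a call under 10 of 35 alternatives, CAN1 under 8, TRP1 under 7 and LEU2 under 3. The dim strain spots of MET17, TRP1, CAN1 and LEU2 limit what changes could be seen there.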
